A study of Mus musculus with 8 samples.

Results

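Primitive red cells are the first blood cells of the mouse embryo, and their globin, haem and regulator genes were followed here through 9 genes: Hbb-bh1, Hbb-y, Hba-x, Alas2, Fech, Slc4a1, Epor, Klf1 and Gata1. Members were all probes whose RefSeq accession in the array files belongs to one of these symbols. This gave 10 probes, 2 of them for Hbb-y and 1 for each of the other 8 genes, among 55681 probes that are not controls. The samples were whole embryos of the outbred stock CD-1 on gestational day 9. Hydroxyurea embryos came from dams that received 400 mg/kg hydroxyurea into the peritoneum, and saline embryos came from dams that received saline. All were collected 3 h later, and 4 samples of each group were hybridised as Cy3-labelled material to 1-colour Agilent arrays. No transgene or deletion is named for either group, and neither the number of embryos in a sample nor the stage of each embryo is given in the sources used here. The design text speaks of 4 independent experiments without saying which arrays shared one, so the p-values measure the spread between these samples.

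Primitive erythroblasts form in the blood islands of the yolk sac, enter the embryo's circulation with their nuclei, and mature there together as a cohort. They carry embryonic haemoglobin, in which the beta-like chains betaH1 (Hbb-bh1) and epsilon-y (Hbb-y) pair with zeta (Hba-x) or adult-type alpha chains, while haem is supplied by a pathway that opens with ALAS2 and closes with ferrochelatase (Fech). GATA1 and KLF1, which bind GATA and CACCC motifs, switch these genes on, band 3 (Slc4a1) is the anion exchanger of the membrane, and Epor is the receptor for erythropoietin. Hydroxyurea blocks ribonucleotide reductase, the enzyme that makes deoxyribonucleotides, and in people with sickle cell disease it is used to raise fetal haemoglobin.

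RefSeq promoter windows of build GRCm38.p6, which run from 250 bases before to 50 after each gene's start, were matched for 6 of the 9 genes: Hbb-y, Hba-x, Alas2, Klf1, Gata1 and Epor. Hbb-bh1 lies beside Hbb-y on chromosome 7, and Hba-x lies beside the adult-type gene Hba-a1 on chromosome 11. The windows of 2 embryonic globins, of the first enzyme of haem synthesis and of Klf1 are shown because the globins form the most abundant product of these cells and Klf1 was the gene whose groups did not overlap. Capitals mark CACCC (the KLF1 motif) and the GATA motif on either strand, searched as AGATAA, also as AGATAG, as TGATAA, and lastly as TGATAG, so GGGTG is CACCC read from the other strand.
Hbb-y, chr7:103853158-103853457, minus strand: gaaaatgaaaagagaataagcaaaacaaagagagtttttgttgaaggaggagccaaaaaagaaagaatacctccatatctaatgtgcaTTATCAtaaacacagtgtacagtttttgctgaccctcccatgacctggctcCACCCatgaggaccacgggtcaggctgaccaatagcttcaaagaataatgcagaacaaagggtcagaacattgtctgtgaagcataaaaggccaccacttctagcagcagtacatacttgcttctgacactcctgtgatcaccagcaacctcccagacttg
Hba-x, chr11:32276350-32276649, plus strand: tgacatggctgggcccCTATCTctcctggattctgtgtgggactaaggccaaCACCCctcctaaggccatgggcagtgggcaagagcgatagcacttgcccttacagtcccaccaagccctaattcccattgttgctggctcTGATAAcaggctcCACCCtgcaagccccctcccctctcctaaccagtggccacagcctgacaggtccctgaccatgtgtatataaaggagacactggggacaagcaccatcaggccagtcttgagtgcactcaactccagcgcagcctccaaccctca
Alas2, chrX:150547167-150547466, plus strand: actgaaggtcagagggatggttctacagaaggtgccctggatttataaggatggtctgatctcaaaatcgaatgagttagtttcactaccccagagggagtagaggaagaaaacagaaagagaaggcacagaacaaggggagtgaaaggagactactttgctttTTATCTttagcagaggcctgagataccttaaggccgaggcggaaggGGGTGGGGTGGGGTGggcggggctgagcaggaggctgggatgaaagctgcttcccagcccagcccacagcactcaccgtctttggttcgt
Klf1, chr8:84901732-84902031, plus strand: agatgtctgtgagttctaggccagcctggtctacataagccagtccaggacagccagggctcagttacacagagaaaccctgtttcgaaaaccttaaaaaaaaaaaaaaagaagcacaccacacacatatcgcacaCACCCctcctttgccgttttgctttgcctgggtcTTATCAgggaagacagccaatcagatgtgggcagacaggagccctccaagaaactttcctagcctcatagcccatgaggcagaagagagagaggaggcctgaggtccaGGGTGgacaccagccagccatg
In Hbb-y the CACCC match began 111 bases before the start and the GATA match 162 before it. Hba-x held 2 CACCC matches, 198 and 95 bases before the start, and 2 GATA matches, 234 and 108 before it. Alas2 held 3 adjoining CACCC matches on the opposite strand, 40, 35 and 30 bases before the start, and a GATA match 86 before it. Klf1 held CACCC 114 bases before the start, the same motif on the opposite strand 29 after it, and a GATA match 80 before it. Gata1 held 2 CACCC matches and 0 GATA matches in its window, while Epor held 2 and 1. Across 32851 promoters of the same length, CACCC was present in 57.5% and a GATA motif in 29.8%, so such a match is common and is a description of these letters only.

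The arrays lay on 2 slides, each with 2 hydroxyurea and 2 saline arrays. Spots well above background made up 48.7% to 62.3% of an array, and 0 spots were saturated. Values are log2 of the background-subtracted signal minus log2 of the array's 75th percentile, called scaled signal below, so a difference of 1 is a doubling. A probe's level depends on its own hybridisation, so levels were compared between groups and not between probes. The 75th percentile itself lay between 249 and 480 in hydroxyurea arrays and between 302 and 516 in saline arrays, and was lowest on hydroxyurea 3. Differences were tested with limma (two-sided), with p-values adjusted by Benjamini and Hochberg over 23109 genes and unnamed features, and called at an adjusted p under 0.05. Over all features 1427 were called, 640 higher and 787 lower in hydroxyurea embryos. The 1427 became 3733 (16.2% of features, 1968 higher and 1765 lower) when hydroxyurea 2 was left out, 978 without hydroxyurea 3, and between 522 and 784 with any other array left out. Without scaling between arrays, a setting chosen after seeing the data, 108 were higher and 504 lower over all 8 arrays.

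All 10 probes were well above background on all 8 arrays, so the defining genes of primitive red cells were measured in every sample. None of the 9 genes was called in limma's test, against 6.18% of all features, and 2 of the 9 had an unadjusted p under 0.05, against 24.8% of all features. The hydroxyurea and saline values did not overlap for 1 of the 9 genes, Klf1, against 15.5% of all features (7.63% in the lower direction). The difference was below 0 for 7 of the 9 genes and above 0 for Fech and Epor, but for Hbb-bh1, Hbb-y, Alas2 and Slc4a1 it was -0.05 or closer to 0 and turned sign with median centring of the arrays. In RNA of whole embryos, fewer red cells and less RNA per red cell cannot be told apart.

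**Figure D1:**
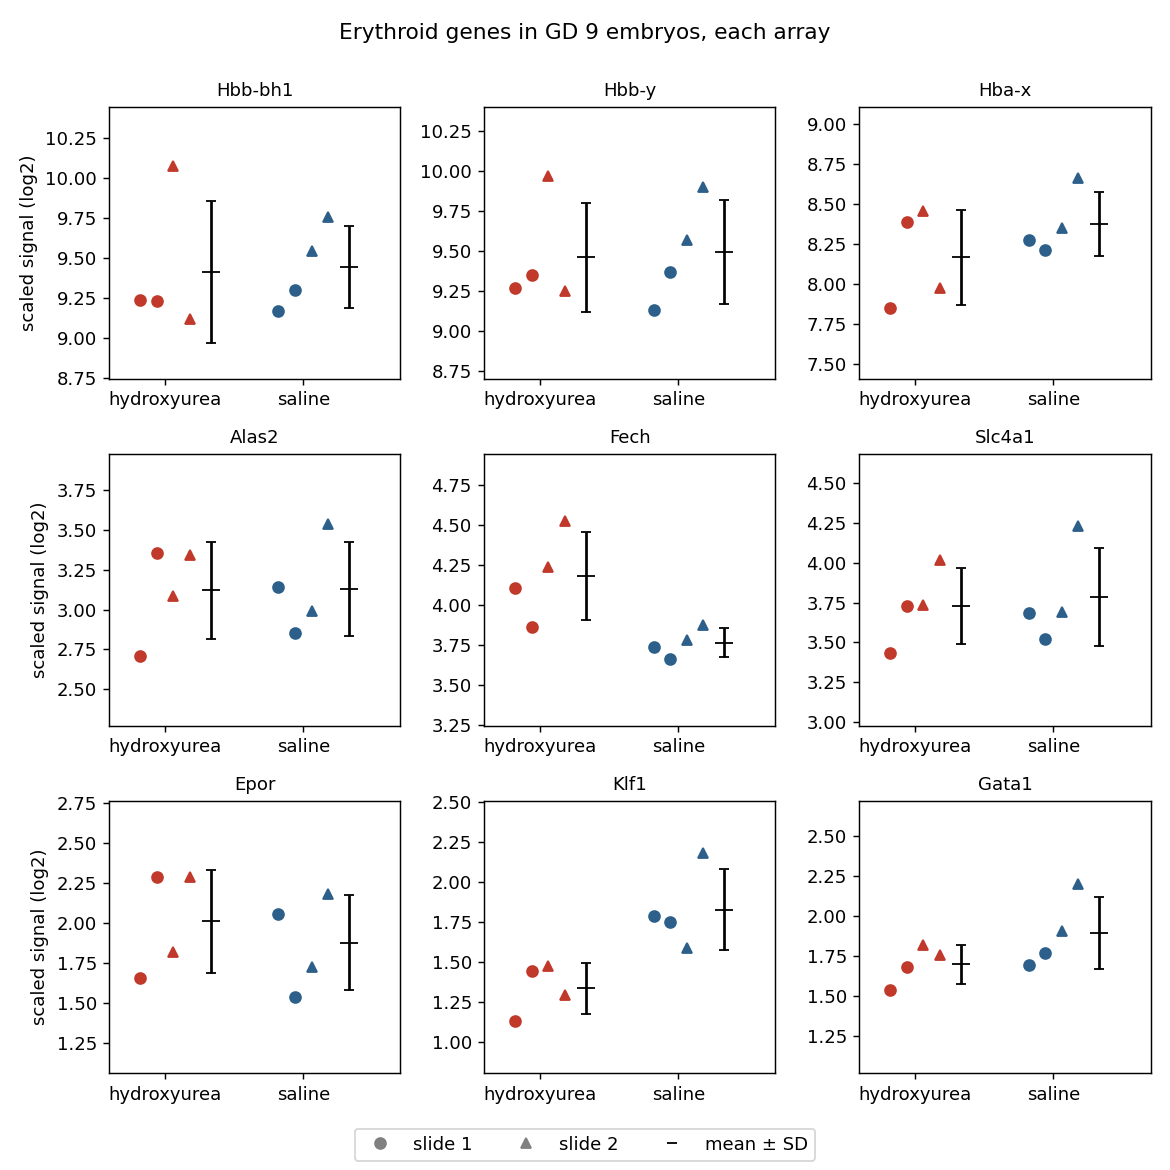
Scaled signal (log2) of the 9 erythroid genes on each array, hydroxyurea left and saline right, with 1 panel a gene, all axes spanning the same number of log2 units; circles are slide 1, triangles slide 2, and bars the mean ± SD of 4 arrays. The groups overlap in 8 panels, and the 4 hydroxyurea values of Klf1 (1.13 to 1.48) lie below its 4 saline values (1.59 to 2.18).

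The embryonic beta-like globins gave overlapping values. Hbb-bh1 (NM_008219), the betaH1 chain, had scaled signals of 9.24, 9.23, 10.07 and 9.12 in hydroxyurea embryos 1 to 4, against 9.17, 9.30, 9.54 and 9.75 in saline embryos 1 to 4. Of the hydroxyurea arrays, 3 lay near the low end of the saline range and hydroxyurea 3 lay above all saline arrays. The difference was -0.03 ± 0.24 (SE, limma, adjusted p = 0.955, n = 4 each), with a 95% interval of -0.56 to 0.51, that is 0.676 to 1.42 in fold.

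Hbb-y (NM_008221), the epsilon-y chain, was measured by 2 probes. On the brighter probe it had 9.27, 9.35, 9.97 and 9.25 in hydroxyurea embryos, against 9.13, 9.37, 9.57 and 9.90 in saline embryos. Again hydroxyurea 3 was the highest array, and the other 3 hydroxyurea arrays lay inside the saline range. The difference was -0.03 ± 0.22 (SE, limma, adjusted p = 0.947, n = 4 each; 95% interval -0.54 to 0.47). The other probe gave 9.06, 8.94, 9.99 and 8.92 in hydroxyurea embryos, against 9.21, 9.10, 9.52 and 9.57 in saline embryos. Its difference of -0.12 ± 0.26 (SE, limma over all probes, adjusted p = 0.81) was also within the spread.

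Hba-x (NM_010405), the zeta chain and the embryonic alpha-like globin, had 7.85, 8.39, 8.46 and 7.98 in hydroxyurea embryos, against 8.27, 8.21, 8.35 and 8.67 in saline embryos. Hydroxyurea 1 and 4 lay below every saline array, and the other two lay inside the saline range. The difference was -0.21 ± 0.19 (SE, limma, adjusted p = 0.529, n = 4 each; 95% interval -0.63 to 0.21).

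The within-array log2 ratios of these globins, from which the array's scaling cancels, overlapped between the groups as well. Hbb-y over Hbb-bh1 averaged 0.05 ± 0.11 in hydroxyurea embryos and 0.05 ± 0.08 in saline embryos (SD, n = 4 each). Hba-x over Hbb-bh1 averaged -1.25 ± 0.33 in hydroxyurea embryos and -1.07 ± 0.12 in saline embryos, with hydroxyurea arrays from -1.62 to -0.84 and saline arrays from -1.19 to -0.90. Hba-x over Hbb-y averaged -1.29 ± 0.24 in hydroxyurea embryos and -1.12 ± 0.18 in saline embryos. The saline ratios lay inside the hydroxyurea range for Hba-x over Hbb-bh1, and the ranges overlapped in the other 2 ratios. These ratios compare probes of different brightness, so only their difference between groups can be read.

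The embryonic beta-like globins Hbb-bh1 and Hbb-y varied together from array to array within each group. Hba-x followed them less closely in hydroxyurea embryos, where the SD of Hba-x over Hbb-bh1 was 0.33, against 0.30 for Hba-x itself. The mean deviation of Hbb-bh1, Hbb-y and Hba-x from their own 8-array means was -0.27, -0.07, 0.44 and -0.28 in hydroxyurea embryos, against -0.20, -0.10, 0.10 and 0.38 in saline embryos. The 3 highest were hydroxyurea 3, saline 4 and saline 3, which were also the 3 arrays with the lowest 75th percentile. All 3 lay on slide 2, whose remaining array, hydroxyurea 4, was the lowest of the 8. Slide 2 was scanned at 5 micrometres a pixel and slide 1 at 3. In the signal before scaling the same deviations were -0.38, 0.10, -0.15 and 0.08 in hydroxyurea embryos, against 0.11, 0.36, -0.21 and 0.09 in saline embryos, and hydroxyurea 3 no longer stood highest. The signal of Hbb-bh1 reached 27.0% to 41.9% of the scanner's saturation value and varied 1.55-fold over the 8 arrays, whereas the 75th percentile varied 2.07-fold. The part of the scaling, of bright spots, or of the slide and its scan in the order of the arrays was not tested.

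**Figure D2:**
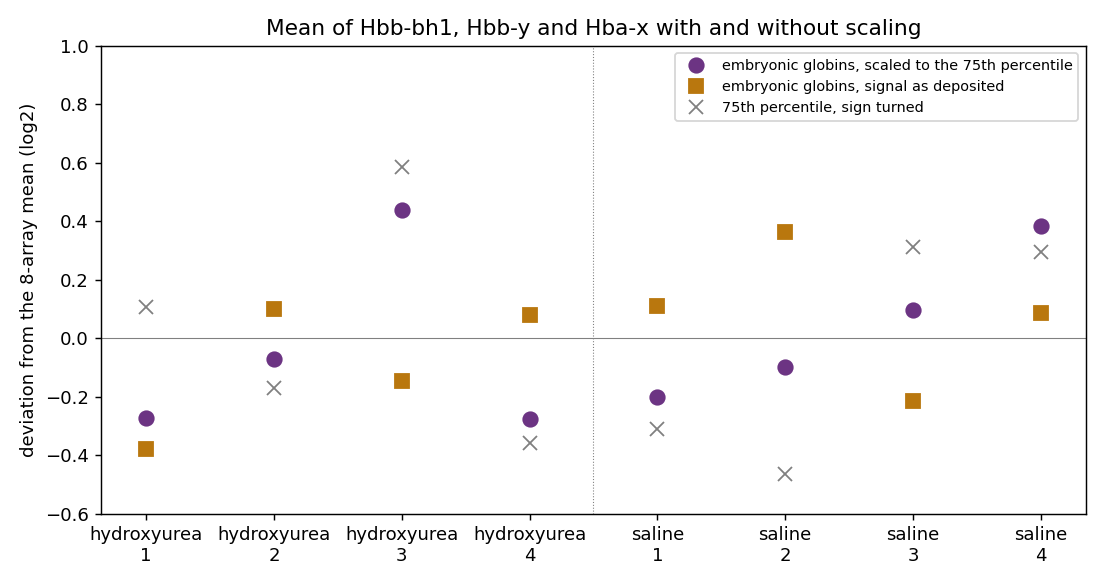
Mean deviation of the 3 embryonic globins from their 8-array means (log2, y axis) on each array (x axis, 4 hydroxyurea arrays left of 4 saline arrays), scaled and as deposited, beside the array's 75th percentile with its sign turned. Hydroxyurea 3 stands at 0.44 scaled and at -0.15 as deposited, where its sign-turned 75th percentile stands at 0.59.

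The likeness of other genes to this pattern was measured as the root mean square difference between a gene's deviations and the mean deviation of the 3 globins over the 8 arrays. Among 14610 genes with a median of 0.396, the smallest values were those of Med16 (0.0818), Ttc38 (0.0916), Rdh1 (0.101), Ndor1 (0.103) and Kctd14 (0.104). Apart from Rdh1, whose signal lay between 29.6 and 51.6, these were bright probes with signals of 99201 and more. Among the other members Gata1 came closest at 0.177, followed by Slc4a1 at 0.268, Klf1 at 0.281, Alas2 at 0.299, Epor at 0.385 and Fech at 0.395. With 8 arrays that share their scaling, this is a description only.

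Of the 2 haem enzymes, neither was called. Alas2 (NM_009653), the erythroid form of the first and rate-limiting enzyme, had 2.71, 3.35, 3.08 and 3.34 in hydroxyurea embryos, against 3.14, 2.85, 2.99 and 3.54 in saline embryos. The lowest array was hydroxyurea 1 and the highest saline 4, and the groups overlapped. The difference was -0.01 ± 0.21 (SE, limma, adjusted p = 0.985, n = 4 each; 95% interval -0.48 to 0.46).

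Fech (NM_007998), which inserts iron into protoporphyrin and is also expressed outside the red cell line, had 4.11, 3.86, 4.23 and 4.53 in hydroxyurea embryos, against 3.74, 3.66, 3.78 and 3.87 in saline embryos. Hydroxyurea 1, 3 and 4 lay above every saline array, and hydroxyurea 2 lay just below the highest of them. The difference was 0.42 ± 0.17 (SE), 1.34-fold, with an unadjusted p of 0.0335 and an adjusted p of 0.164 in limma (n = 4 each; 95% interval 0.04 to 0.79), so it was not called. Without hydroxyurea 2 it was 0.52 with an adjusted p of 0.0477, and it was the only member called with any array left out, 1 of 9 in a fit that called 16.2% of all features (8.52% higher and 7.64% lower). It measured 0.28 within slide 1 and 0.55 within slide 2.

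Slc4a1 (NM_011403), band 3 of the red cell membrane, had 3.43, 3.73, 3.74 and 4.02 in hydroxyurea embryos, against 3.69, 3.52, 3.69 and 4.23 in saline embryos. The values of 3 hydroxyurea arrays lay inside the saline range. The difference was -0.05 ± 0.20 (SE, limma, adjusted p = 0.897, n = 4 each; 95% interval -0.50 to 0.39).

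Epor (NM_010149), the erythropoietin receptor, had 1.65, 2.29, 1.82 and 2.29 in hydroxyurea embryos, against 2.06, 1.54, 1.73 and 2.18 in saline embryos. Each group held lower and higher arrays, and the groups overlapped. The difference was 0.13 ± 0.21 (SE, limma, adjusted p = 0.741, n = 4 each; 95% interval -0.35 to 0.61).

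Of the regulators, Klf1 was the one with separate groups. Klf1 (NM_010635), the erythroid Krüppel-like activator of globin, haem and membrane genes, had 1.13, 1.44, 1.48 and 1.29 in hydroxyurea embryos, against 1.79, 1.75, 1.59 and 2.18 in saline embryos. Every hydroxyurea array lay below every saline array, with the closest pair 1.48 on hydroxyurea 3 and 1.59 on saline 3. The difference was -0.49 ± 0.17 (SE), 0.711-fold, with an unadjusted p of 0.0164 (95% interval -0.87 to -0.11, n = 4 each). Its adjusted p in limma was 0.116, and it lay between 0.0795 and 0.716 over 19 other settings, so Klf1 was not called in any of them. The difference was -0.48 within slide 1 and -0.50 within slide 2.

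Gata1 (NM_008089), the GATA factor on which red cell formation depends, had 1.53, 1.68, 1.81 and 1.75 in hydroxyurea embryos, against 1.69, 1.76, 1.90 and 2.20 in saline embryos. Hydroxyurea 1 and 2 lay below every saline array and the others inside the saline range. The difference was -0.19 ± 0.16 (SE, limma, adjusted p = 0.48, n = 4 each; 95% interval -0.55 to 0.16).

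**Figure D3:**
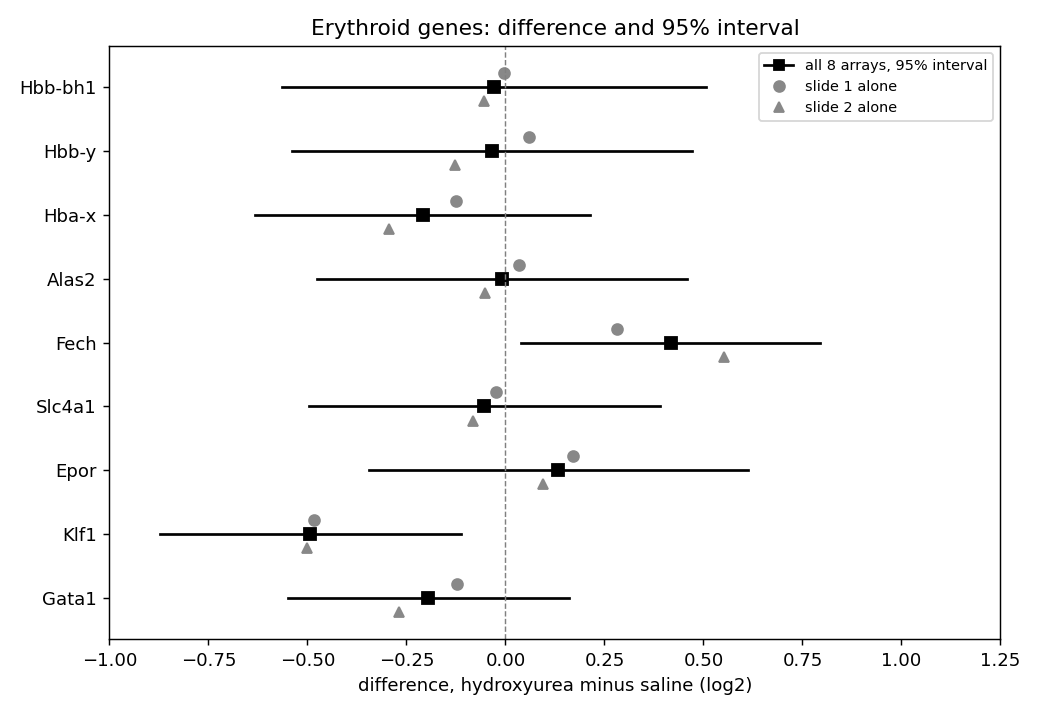
Difference in scaled signal, hydroxyurea minus saline (log2, x axis), for the 9 erythroid genes (y axis); squares and lines give the fit of all 8 arrays with its 95% interval, and grey circles and triangles the values within slide 1 and slide 2. The intervals of Klf1 (-0.87 to -0.11) and Fech (0.04 to 0.79) do not reach 0, while the other 7 cross it.

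Beyond the members, 5 lists of other erythroid and blood genes were counted. Over all features 2.77% were called higher and 3.41% lower, and the median difference was 0.04 (0.10 over named genes, and 0.158 over all features with median centring). Of 12 other globins 11 had a probe and 9 passed the filter, and of these 0 were called by limma and 0 had an unadjusted p under 0.05, with a median difference of -0.09, which ran from -0.19 without saline 1 to 0.13 without hydroxyurea 3. The adult-type alpha globin Hba-a1 had 8.83, 8.89, 9.34 and 8.85 in hydroxyurea embryos, against 8.59, 8.53, 8.56 and 9.21 in saline embryos. Its near-identical copy Hba-a2 had 9.44, 9.21, 10.09 and 9.16 in hydroxyurea embryos, against 9.16, 9.38, 9.73 and 9.98 in saline embryos. Adjusted p was 0.476 for Hba-a1 and 0.866 for Hba-a2, and the groups overlapped for both.

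Of the adult-type beta globins, Hbb-b2 and Hbb-bs varied more among the hydroxyurea arrays than among the saline arrays. Their SD was 0.76 and 1.69 in hydroxyurea arrays, against 0.14 and 0.43 in saline arrays (n = 4 each). Hbb-bt varied widely in each group, with an SD of 0.80 in hydroxyurea arrays and 0.61 in saline arrays. Hbb-b2 had 2.51, 3.71, 3.47 and 2.11 in hydroxyurea embryos, against 2.19, 2.11, 2.40 and 2.38 in saline embryos, a difference of 0.68 (adjusted p = 0.239). Hbb-bs had -2.41, 1.13, -0.23 and -2.21 in hydroxyurea embryos, against 0.87, 0.14, 0.90 and 0.12 in saline embryos, a difference of -1.44 (adjusted p = 0.243). Hydroxyurea 2 was the highest array of both genes. Without hydroxyurea 2 Hbb-bs was called, at -2.12 with an adjusted p of 0.0335 in limma. That fit called 16.2% of all features in either direction and 7.64% lower. Hbb-bs was -0.94 without hydroxyurea 1 (adjusted p = 0.493) and -1.01 without hydroxyurea 4 (adjusted p = 0.499). Hbb-bt had 2.95, 4.88, 4.11 and 3.91 in hydroxyurea embryos, against 3.98, 3.04, 3.13 and 4.27 in saline embryos (adjusted p = 0.642). These genes are near-identical copies and alleles of 1 locus, so a probe may hybridise with RNA of several of them and no value can be assigned to 1 copy.

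**Figure D4:**
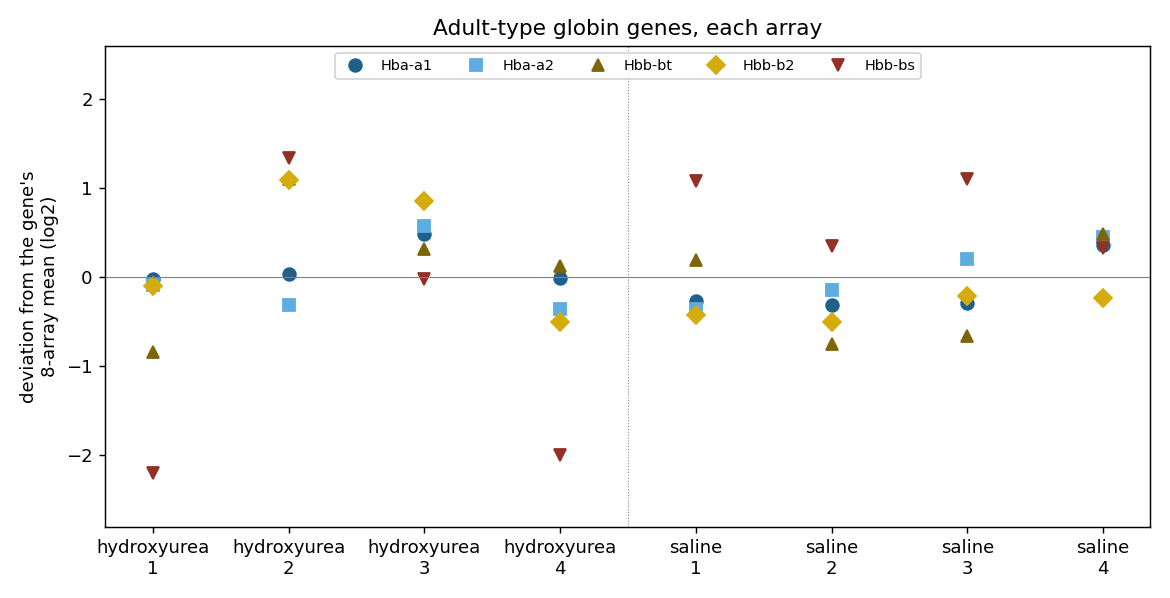
Deviation of 5 adult-type globin genes from their own 8-array means (log2, y axis) on each array (x axis, hydroxyurea left of saline). Hba-a2, with a scaled signal of 9.16 to 10.09 in hydroxyurea embryos, spreads less than Hbb-bs, with -2.41 to 1.13 in hydroxyurea embryos.

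Of 32 genes of haem synthesis and iron handling all 32 were measured and 0 were called by limma, with 5 at an unadjusted p under 0.05 and a median difference of 0.11, which was 0.06 without hydroxyurea 3 and 0.16 without hydroxyurea 2. The lowest p belonged to Flvcr1, a membrane transporter described as a haem exporter, with 1.92, 0.82, 1.27 and 1.57 in hydroxyurea embryos, against 0.44, 0.61, 0.54 and 0.66 in saline embryos. All its hydroxyurea values lay above all saline values, but the difference of 0.83 ± 0.23 (SE) had an adjusted p of 0.0619. Fth1, the heavy chain of the iron store ferritin, had 7.92, 7.56, 8.10 and 7.75 in hydroxyurea embryos, against 7.37, 7.28, 7.52 and 7.33 in saline embryos (difference 0.46, adjusted p = 0.115). Tfrc, the transferrin receptor that brings iron into erythroblasts, differed by 0.23 on its brightest probe (adjusted p = 0.401), and by 0.12 and 0.76 on 2 others. Without hydroxyurea 2, 5 of the 32 genes were called, all higher, among them Flvcr1 (adjusted p = 0.0113) and Fth1 (adjusted p = 0.036), in a fit that called 8.52% of all features higher and 16.2% in either direction.

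Of 26 erythroid transcription factors, besides Klf1 and Gata1, 25 were measured, and 2 rose in hydroxyurea embryos and 0 fell, with a list median of 0.11, which ran from 0.07 without hydroxyurea 3 to 0.27 without saline 4. Gfi1b, a zinc-finger repressor that red cell and megakaryocyte development require, had 1.09, 1.17, 1.22 and 1.69 in hydroxyurea embryos, against 0.00, 0.06, 0.05 and 0.31 in saline embryos. Its lowest hydroxyurea array lay well above its highest saline array, and the difference was 1.19 ± 0.17 (SE, limma, adjusted p = 0.00571). Klf2, a Krüppel-like factor of endothelium that in mice also acts with Klf1 on embryonic beta-like globins, had 2.25, 1.60, 2.22 and 1.91 in hydroxyurea embryos, against 0.78, 0.95, 0.68 and 0.75 in saline embryos. Again the groups stood apart, with a difference of 1.20 ± 0.18 (SE, limma, adjusted p = 0.00651). Within slide 1 and slide 2 Gfi1b differed by 1.101 and 1.275 and Klf2 by 1.06 and 1.35. Both stayed called when any 1 array was left out.

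Of 23 genes of the red cell membrane and skeleton 22 were measured and 0 were called by limma, with 5 at an unadjusted p under 0.05 and a median difference of 0.08, which ran from 0.0082 without saline 3 to 0.18 without saline 4. Ermap, an erythroblast membrane protein, had -0.65, 0.58, -0.02 and -0.45 in hydroxyurea embryos, against 0.71, 0.65, 0.44 and 1.16 in saline embryos (difference -0.87, adjusted p = 0.0945). The groups overlapped through hydroxyurea 2. Without hydroxyurea 2, 3 of the 22 genes were called, 2 higher and 1 lower, in a fit that called 16.2% of all features. The lower one was Ermap, at -1.11 (adjusted p = 0.0176). These Ermap values come from its brightest probe. With no array left out, its other probes differed by 0.07 and -0.12 (limma over all probes, adjusted p = 0.901 and 0.890).

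Of 29 genes of erythropoietin signalling and other red cell proteins 28 had a probe and 27 were measured, with 3 called higher, 3 lower and a median difference of 0.09, which was 0.15 without hydroxyurea 4. Stat5a, a transcription factor activated by the erythropoietin receptor and by many cytokines, had -0.48, -1.21, -0.70 and -0.53 in hydroxyurea embryos, against -1.75, -1.68, -1.33 and -1.75 in saline embryos. It rose by 0.90 ± 0.20 (SE, limma, adjusted p = 0.0313). Cish, an inhibitor of that pathway and a STAT5 target, had 0.31, 0.22, 0.25 and 0.61 in hydroxyurea embryos, against -0.20, -0.40, -0.14 and -0.28 in saline embryos. It rose by 0.60 ± 0.15 (SE, limma, adjusted p = 0.0442). Both genes had every hydroxyurea value above every saline value. Erfe, the erythroblast hormone erythroferrone, rose by 0.70 ± 0.15 (SE, limma, adjusted p = 0.0304), but it was well above background on 2 of 4 arrays in each group. With normexp its difference was 0.29 (adjusted p = 0.323), and its call was lost in 12 of 18 other settings.

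The 3 genes that fell in this list are expressed well beyond red cells. Kitl, the Kit ligand that other cells present to blood progenitors, had -3.49, -1.49, -2.39 and -2.63 in hydroxyurea embryos, against -0.98, -0.48, -0.48 and -0.12 in saline embryos. All hydroxyurea values lay below all saline values, and Kitl fell by 1.99 ± 0.38 on the log2 scale (SE, limma, adjusted p = 0.0176). Cdc25b, a phosphatase that activates cell cycle kinases, had 2.12, 2.15, 2.19 and 2.28 in hydroxyurea embryos, against 2.69, 2.65, 2.77 and 3.09 in saline embryos (difference -0.62, adjusted p = 0.0424). Gclm, a subunit of the enzyme that starts glutathione synthesis, averaged -1.29 ± 0.04 in hydroxyurea embryos and -0.59 ± 0.30 in saline embryos (SD, n = 4 each; difference -0.69, adjusted p = 0.0446). The number called in this list depended on the arrays used: it was 0 without hydroxyurea 4, saline 2 or saline 4, 1 without hydroxyurea 3, saline 1 or saline 3, 2 without hydroxyurea 1 and 9 without hydroxyurea 2. The fit without hydroxyurea 2 called 16.2% of all features. With the slide as a block the calls of Cish (adjusted p = 0.061), Cdc25b (0.0517) and Gclm (0.0638) were lost. With hydroxyurea 4 left out the adjusted p was 0.0604 for Kitl, 0.104 for Stat5a and 0.138 for Cish.

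**Figure D5:**
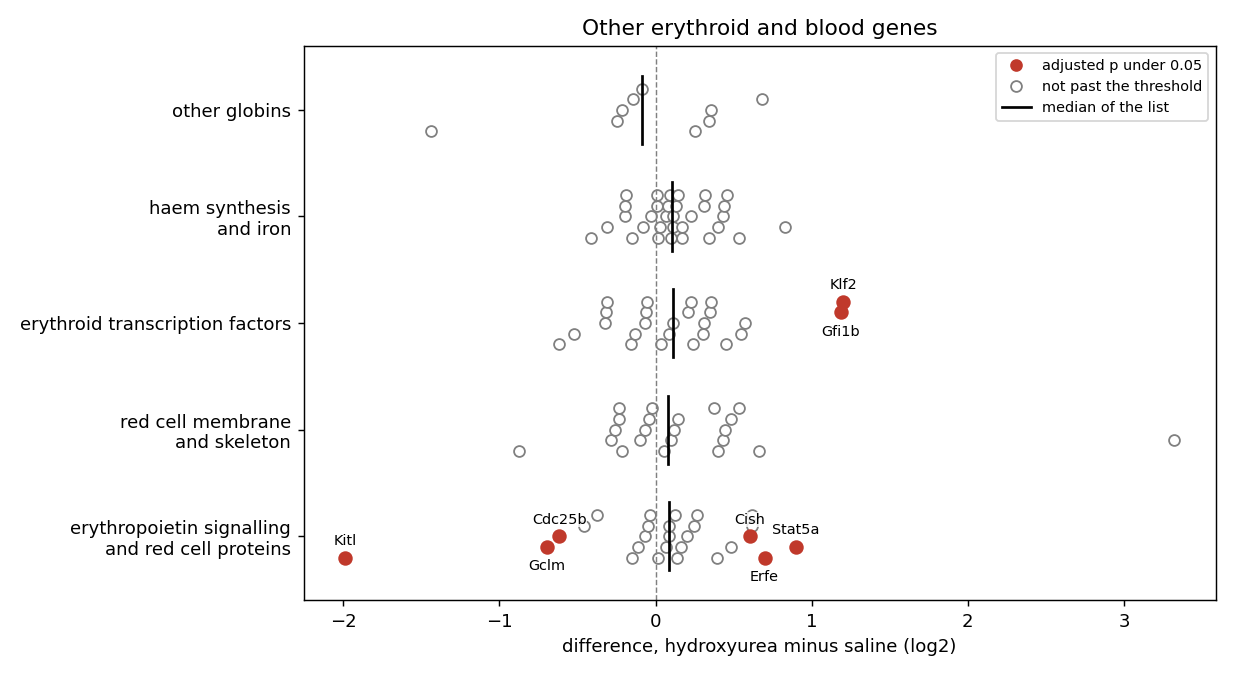
Difference in scaled signal, hydroxyurea minus saline (log2, x axis), of every measured gene in 5 lists of other erythroid and blood genes (y axis); filled red points were called, and a vertical line is the list's median. The list medians lie between -0.09 and 0.11 over all 8 arrays and move with single arrays, and the 8 called genes are Gfi1b, Klf2, Stat5a, Erfe, Cish, Cdc25b, Gclm and Kitl.

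Markers of other cells that blood or whole embryos hold were read beside these values. Of 7 megakaryocyte genes 1 was called, with a list median of 0.82: Gp1ba, a platelet membrane glycoprotein, had -1.95, -1.74, -1.43 and -0.78 in hydroxyurea embryos, against -2.44, -2.34, -2.77 and -2.44 in saline embryos. It rose by 1.02 ± 0.25 (SE, limma, adjusted p = 0.0441), and was not called without hydroxyurea 3 or 4 or any 1 saline array (adjusted p 0.0819 to 0.114), nor with the slide as a block (0.0569). The mean of the 7 genes ran from -1.93 to -0.62 in hydroxyurea embryos and from -2.24 to -1.68 in saline embryos, overlapping through hydroxyurea 1. Gfi1b acts in this lineage too, and the part of megakaryocytes in its value was not tested.

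Of 6 endothelial genes, which bear on Klf2, all were measured and 0 were called by limma, with 3 at an unadjusted p under 0.05, 5 differences below 0, 1 above it and a list median of -0.12. That median ran from -0.21 without saline 4 to -0.06 without saline 1. Their mean ran from 0.23 to 0.69 in hydroxyurea embryos and from 0.51 to 0.77 in saline embryos. Kdr, the VEGF receptor of endothelium and blood progenitors, differed by -1.16 on its brightest probe (adjusted p = 0.087) and by -0.38 on another (adjusted p = 0.203 over all probes). Emcn, an endothelial surface protein, differed by 0.64 (adjusted p = 0.0595), and Cdh5, an endothelial cadherin named here after its value was seen, by -0.76 (adjusted p = 0.107). Without hydroxyurea 2 Kdr and Emcn were called, Kdr at -1.40 (adjusted p = 0.0328) and Emcn at 0.66 (adjusted p = 0.0474). That fit called 16.2% of all features, with 8.52% higher and 7.64% lower. The part of endothelium in the Klf2 value was not tested.

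The 6 genes of yolk sac endoderm, the tissue beside the blood islands, were all measured and 0 were called by limma, with 0 at an unadjusted p under 0.05. All 6 differences were below 0, with a median of -1.07 that rested on single arrays: it was -0.24 without saline 2, -0.47 without hydroxyurea 3, -1.63 without hydroxyurea 1 and -1.73 without saline 1. Their mean was 1.79, 0.995, -1.22 and 0.14 in hydroxyurea embryos, against -0.33, 3.71, 1.24 and 1.48 in saline embryos, so the samples of both groups varied widely in this signal. The mean scaled deviation of the embryonic globins was -0.27, -0.07, 0.44 and -0.28 in hydroxyurea embryos, against -0.20, -0.10, 0.10 and 0.38 in saline embryos. Hydroxyurea 3, highest in these globins, had the lowest yolk sac mean, but saline 4, the next highest, did not have a low one. Saline 2 had the highest yolk sac mean in scaled signal, where its globin deviation was -0.10. Before scaling, saline 2 was highest in these globins (0.36), and its 75th percentile was the highest of all arrays (516). The yolk sac means are scaled values, so they cannot be set beside the globin value before scaling. A link between the 2 signals was not tested. The apolipoprotein Apoa4 differed by -1.71 (adjusted p = 0.276), and by -2.33 to -1.03 with 1 array left out. Another, Apob, differed by -1.44 (adjusted p = 0.346), and by -2.14 to -0.76 with 1 array left out.

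White cell markers were measured only in part. Of 6 macrophage and white cell genes 3 were measured and 0 called by limma, with 1 at an unadjusted p under 0.05, and the general white cell marker Ptprc and the macrophage enzyme Lyz2 did not pass the filter. Csf1r, the receptor of macrophage growth factor, differed by -1.51 (adjusted p = 0.0921) and Mrc1, a macrophage lectin, by 0.29 (adjusted p = 0.744). Without hydroxyurea 2 Csf1r was called, at -1.84 (adjusted p = 0.0344), in a fit that called 16.2% of all features in either direction. With no array left out, the other Csf1r probe differed by -0.44 (limma over all probes, adjusted p = 0.174). Of 6 neutrophil genes, taken for maternal blood, 4 were measured and 0 called, with 0 at an unadjusted p under 0.05, and S100a8 did not pass the filter. The granule proteins Mpo and Elane differed by 0.37 (adjusted p = 0.403) and -0.39 (adjusted p = 0.591).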

How the data were processed

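The 8 deposited scanner files hold Cy3 intensity values from Agilent Feature Extraction 11.5.1.1, per the submitters' processing notes and the file headers, with background subtracted and no scaling between arrays. Control spots and outlier spots (151 to 315 an array) were left out, spots of a probe were averaged as log2, and the array's 75th percentile was subtracted. Probes well above background on at least 4 of 8 arrays were kept (30663; 142 without a usable spot on some array were dropped), and the brightest probe stood for its gene. Names came from RefSeq accessions (GRCm38.p6), for 26582 of 55681 probes. The test was limma 3.58.1 without covariate or trend (R 4.3.3), whose steps were first tested on simulated data. The number of arrays limits the precision.

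The authors' deposited table of log2 values, centred per probe by the values, holds 1346 probes and none of the 10 member probes. It holds probes of 6 list genes: Cdc25b, Cish, Erfe, Gclm, Gfi1b and Klf2. Kitl, Stat5a and Gp1ba, also called here, have no probe in it. The table was not used further. Its test is not given in the sources used here.

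Members and lists were chosen with earlier results of these data known, so no list was tested. Named genes were the members, adult-type globins, Tfrc, per list the called genes (up to 6) or the 2 lowest p, and the 5 genes most like the embryonic globins. Some of these are not reported here. Alternatives were normexp (offset 50, on the median spot signal in place of the mean signal that was planned), quantile and median scaling, the filter, the slide, mean of probes, an intensity trend and each array left out.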

Additional observations from a re-analysis of the deposited data

Results flagged for a closer look

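In groups of 4 arrays, a sample was marked when its gap to the nearest other array as a share of the group's range exceeded Dixon's critical value. Of 18 groups of erythroid gene values 2 were marked, and chance marks about 1 in 20. Both were the array hydroxyurea 3. Its Hbb-bh1 value was 10.07, where the other hydroxyurea arrays lay between 9.12 and 9.24, and its Hbb-y value was 9.97, where the others lay between 9.25 and 9.35. The gap was 0.874 of the range for Hbb-bh1 and 0.859 for Hbb-y. The 2 genes share the array and its scaling, so these are not independent marks. The same array had the lowest 75th percentile (249) and the smallest share of spots well above background (48.7%). In the unscaled signal its mean globin deviation was -0.15, and the cause was not tested.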

How the results depend on the processing

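No paired analysis was possible because the replicate numbers were given in accession order and pair no samples. Hba-x, Fech, Klf1, Gata1 and Epor kept their direction in all 19 alternatives, and Fech without hydroxyurea 2 was the 1 member call. The number of members called ranged from 0 to 1 with an array left out. The sign of Hbb-bh1 turned with normexp (0.0242), quantile normalization (0.0908) and median centring (0.0886), and that of Hbb-y with quantile normalization (0.134), median centring (0.0853) and slide 1 alone (0.0606). Median centring turned Alas2 (0.11), Slc4a1 (0.065) and Hba-a2 (0.0313), slide 1 alone turned Alas2 (0.0348), Hba-a2 (0.0509) and Elane (0.20), and quantile normalization turned Hba-a2 (0.0176). With 1 array left out the differences ranged from -0.25 to 0.0742 for Hbb-bh1, -0.20 to 0.10 for Hbb-y, -0.10 to 0.13 for Alas2, -0.15 to 0.0949 for Slc4a1, -0.29 to 0.0512 for Hba-a2 and -0.0942 to 0.72 for Mrc1.

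Over all features 615 were called without the filter on dim probes, 53 on slide 1 alone, 3 on slide 2 alone and 612 without scaling between arrays, a setting chosen after seeing the data, and 522 to 3733 with an array left out. Fewer samples enter the slide fits. Of the haem and iron list 1 gene was called with normexp, with probes well above background on all 8 arrays or with an intensity trend, 2 with quantile normalization, and 0 to 5 with an array left out. Of the erythropoietin list 2 were called with median centring, 1 without the filter, 3 with the slide as a block, 0 on either slide alone, 1 without scaling and 0 to 9 with an array left out. Of the transcription factor list 0 were called on either slide alone or without scaling (adjusted p 0.145 for Gfi1b and 0.118 for Klf2), and 2 to 4 with an array left out. The ranges were 0 to 1 for other globins and 0 to 3 for the membrane list. With the slide as a block the adjusted p was 0.142 for Klf1 and 0.149 for Fech. Where a value moved the cause was not tested.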
